A study of Homo sapiens with 12 samples.

Results

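The RNAs described here were the 390 entries of the count table whose gene symbol ends in -AS and 1 digit, the ending given to long noncoding RNAs transcribed from the strand opposite a named gene, and whose raw counts summed to at least 200 over the 12 libraries. They were selected on these summed counts and on nothing else, so their levels are a description. The table held 1538 entries with such a symbol among 59385 gene names, and 305 of the 1538 had no count in any library. KLF3-AS1 and MIR1-1HG-AS1, with 200 counts each, and IPO9-AS1, with 201, lay just inside the limit. REPIN1-AS1, with 198 counts, and C8orf34-AS1 and RNF157-AS1, with 199 each, lay just outside it. All 390 passed the filter on low counts and entered the fit.

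Antisense RNAs of this kind often start close to the promoter of the gene on the other strand, and most are capped, spliced and polyadenylated like mRNAs. Some stay in the nucleus, where they can act on transcription or chromatin near their own gene, while others are exported and are found with ribosomes, mostly without a known stable protein product. Polysome profiling separates RNAs by the number of ribosomes they carry, so an antisense RNA in the heavy fractions of the gradient migrates with translating ribosomes or with complexes as heavy as these.

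The libraries came from HEK293T, a human embryonic kidney cell line, that carried a doxycycline (Dox)-inducible shRNA, directed at PRRC2B in one line (shPRRC2B) and non-silencing in the other (shCtrl). PRRC2B is an RNA-binding protein, and the study asked how its loss changes translation. The groups were shCtrl total RNA, shCtrl polysome RNA, shPRRC2B total RNA and shPRRC2B polysome RNA, with 3 biological replicates in each and Dox for 36 h in all of them. Each shRNA was studied in a single stable clone, so the shRNA and the clone cannot be told apart in any comparison between the lines. Total RNA was that of whole cells, whereas polysome RNA was pooled from the heavy fractions of a cytoplasmic lysate from which nuclei had been pelleted, and both were enriched for poly(A). An RNA that is retained in the nucleus and one that is cytoplasmic but carries few ribosomes therefore cannot be told apart in the ratio of polysome to total RNA.

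Libraries held between 9855734 and 20837542 counts. PRRC2B, the targeted gene, had 258 to 313 CPM (counts scaled to library size, with TMM factors) in shCtrl total RNA and 97.9 to 103 CPM in shPRRC2B total RNA, with no overlap. Of the markers of HEK293T, PAX2, NEFL, NEFM, INA, VIM and CDH2 were present in every library while LHX1 had 0 to 7 counts, and PTPRC, CD3E, ALB, KRT5, MYH7 and PECAM1, markers of other tissues, had 0 to 6 counts. The nuclear RNA MALAT1 had 14.99, 162 and 369 CPM in the shCtrl polysome libraries, a wider spread than its 90.3 to 116 CPM in shCtrl total RNA. In shPRRC2B polysome RNA it had 4.39, 17.0 and 7.33 CPM, so that its polysome level differed between the lines by -4.26 ± 0.71 on the log2 scale (edgeR adjusted p = 0.00013) and its polysome-to-total ratio by -3.21 ± 0.91 (edgeR adjusted p = 0.014). NEAT1, another nuclear RNA, had 23.8 to 68.6 CPM in shCtrl polysome RNA against 221 to 276 CPM in shCtrl total RNA, and its ratio differed between the lines by 0.59 ± 0.34 (edgeR adjusted p = 0.21). The part of nuclear RNA in the polysome values and ratios of the antisense RNAs was not tested.

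Of the 390 RNAs, 366 matched 1 gene of GENCODE 44 by name, 361 of them annotated as lncRNA. The place of the RNA relative to its partner, the gene whose symbol comes before -AS, was known for 355. The 2 genes lay on opposite strands and overlapped in 330 cases, stood head to head without overlap and with starts within 1000 bases in 23, and lay further apart in 2. The exons of an antisense RNA covered a median of 3586 bases, a median of 7.77% of which was shared with exons of another gene. For 75 RNAs no exon base was shared and for 11 more than 50% was. The counting was not stated to use strand, so reads from a shared exon could not be assigned to one strand, and pairs over more than 1 gene were not counted. The same limit holds where an exon of the RNA lies in an intron of another gene, also for RNAs without a shared exon base. Its part in the counts was not tested. The canonical transcripts had a median of 1562 nucleotides and 3 exons, a GC content of 49.9% and a longest open reading frame of 78.5 codons.

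RefSeq promoter windows, which run from 250 bases before the annotated start to 50 bases after it on GRCh38.p14, were found for 285 of the 390 RNAs. These windows held a median of 24 CpG dinucleotides, against 14 in all 27305 windows. The GC box GGGCGG, read on both strands, was in 64.2% of the members' windows and in 44.6% of all windows, the CCAAT box (CCAAT, both strands) in 30.9% and 35.7%, and the TATA box TATAAA (both strands) in 5.26% and 11.95%. A match is a description of the letters and not a binding site. The windows of 3 RNAs to which the results return are printed, with each CG in capitals: FGD5-AS1 and GABPB1-AS1, which had the highest CPM of all members in shCtrl total RNA, and DICER1-AS1, which starts 365 bases from the start of DICER1 and went the opposite way to it.
FGD5-AS1 (chr3:14948392-14948691, minus strand, 32 CG): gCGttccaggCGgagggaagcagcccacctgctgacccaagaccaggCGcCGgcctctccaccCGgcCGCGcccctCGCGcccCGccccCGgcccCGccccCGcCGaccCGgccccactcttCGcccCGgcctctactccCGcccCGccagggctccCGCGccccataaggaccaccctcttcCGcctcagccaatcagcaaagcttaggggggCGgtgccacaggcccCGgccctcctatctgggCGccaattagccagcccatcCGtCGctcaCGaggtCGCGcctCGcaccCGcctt
GABPB1-AS1 (chr15:50353924-50354223, plus strand, 6 CG): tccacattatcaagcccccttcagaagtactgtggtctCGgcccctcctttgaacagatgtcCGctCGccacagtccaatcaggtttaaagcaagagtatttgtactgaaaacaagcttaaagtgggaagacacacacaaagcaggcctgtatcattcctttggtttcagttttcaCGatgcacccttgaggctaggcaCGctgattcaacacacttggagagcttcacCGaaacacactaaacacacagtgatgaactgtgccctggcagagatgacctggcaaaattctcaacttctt
DICER1-AS1 (chr14:95157438-95157737, plus strand, 38 CG): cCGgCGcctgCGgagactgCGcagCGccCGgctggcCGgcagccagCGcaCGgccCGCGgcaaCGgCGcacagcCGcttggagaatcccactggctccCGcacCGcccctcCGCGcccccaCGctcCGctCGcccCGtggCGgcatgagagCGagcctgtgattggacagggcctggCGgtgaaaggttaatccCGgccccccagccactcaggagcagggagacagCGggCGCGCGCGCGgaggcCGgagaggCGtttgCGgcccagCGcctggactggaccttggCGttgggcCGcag
The windows of FGD5-AS1 and DICER1-AS1 were rich in CpG and held a GC box and a CCAAT box, while that of GABPB1-AS1 held few CpG, a CCAAT box and no GC box.

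The 390 RNAs together took a small share of each library, and the share differed between the 4 groups. It was 0.380%, 0.358% and 0.376% of the counts in shCtrl total RNA (0.371% ± 0.0116, SD, n = 3) and 0.340%, 0.322% and 0.317% in shCtrl polysome RNA (0.326% ± 0.0125, SD, n = 3). In shPRRC2B cells it was 0.267%, 0.264% and 0.276% in total RNA (0.269% ± 0.00617, SD, n = 3) and 0.450%, 0.461% and 0.497% in polysome RNA (0.469% ± 0.0246, SD, n = 3). No pair of groups overlapped: the share was lower in shPRRC2B than in shCtrl total RNA and higher in shPRRC2B than in shCtrl polysome RNA. Each of the 4 comparisons gave a two-sided exact permutation p of 0.1, which is the smallest that 3 against 3 allows. Fewer cells that express an RNA and less of it in each cell cannot be told apart in these bulk libraries.

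**Figure D1:**
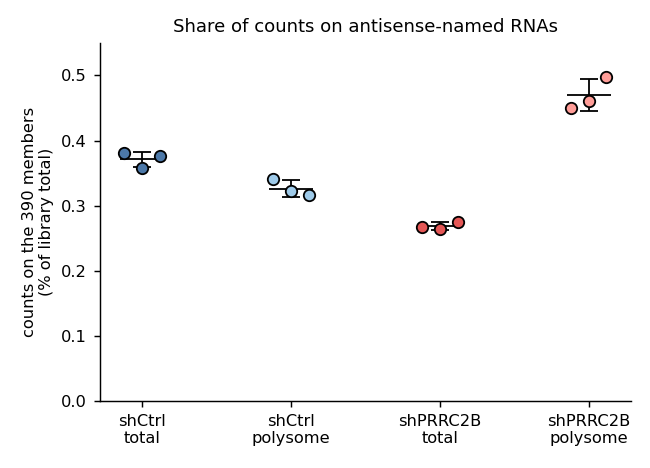
Share of each library's counts (%, y axis) that fell on the 390 antisense-named RNAs, by group (x axis); points are libraries, the dash and bars the mean ± SD (n = 3). The shPRRC2B polysome libraries lie between 0.450% and 0.497%, above every other library, and the shPRRC2B total libraries lie lowest, at 0.264% to 0.276%.

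The most abundant antisense RNAs by CPM in shCtrl total RNA were FGD5-AS1, GABPB1-AS1, OIP5-AS1, THAP9-AS1, SLC9A3-AS1, THUMPD3-AS1, MAGI2-AS3, TP73-AS1, SLC16A1-AS1 and WARS2-AS1. Their order per kilobase of exon differed, since their exon lengths differ. On that scale the level in shCtrl total RNA was 19.7 CPM per kilobase for FGD5-AS1, 18.9 for THAP9-AS1, 10.4 for SLC9A3-AS1, 6.51 for GABPB1-AS1 and 4.98 for OIP5-AS1, and between 2.45 for MAGI2-AS3 and 5.11 for THUMPD3-AS1 for the others. Over all members with a known length EMC3-AS1 was highest on that scale, with 43.5 CPM per kilobase, and VPS9D1-AS1 (16.7) and URB1-AS1 (11.35) came between THAP9-AS1 and SLC9A3-AS1; EMC3-AS1 and VPS9D1-AS1 are named here after their values were seen. TP73-AS1 is annotated as a transcribed unitary pseudogene and not as lncRNA in GENCODE 44. Among those called lower in polysome than in total RNA of shCtrl cells were GABPB1-AS1, SLC9A3-AS1, OIP5-AS1 and SLC16A1-AS1. THUMPD3-AS1 was called higher there, a direction that turned in shCtrl cells when library totals replaced TMM. That call was also lost when certain single libraries were left out, such as shCtrl polysome replicate 1 (log2 ratio 0.37).

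GABPB1-AS1 lies opposite GABPB1, a subunit of the ETS-family factor GABP, and had the lowest adjusted p for a TE change of all members (TE is the polysome-to-total ratio, and a TE change is that ratio in shPRRC2B over that in shCtrl, tested as an interaction). Its level was 111, 114 and 113 CPM in shCtrl total RNA and 38.4, 42.5 and 44.3 CPM in shPRRC2B total RNA. In polysome RNA it was 18.8, 21.8 and 16.1 CPM in shCtrl and 19.3, 23.9 and 26.1 CPM in shPRRC2B cells. The lines did not overlap in total RNA and overlapped in polysome RNA. Total RNA fell by 1.43 ± 0.14 on the log2 scale (SE; edgeR adjusted p = 7.8e-07), the polysome difference was 0.29 ± 0.15 (edgeR adjusted p = 0.13), and the TE change was 1.72 ± 0.20 (edgeR adjusted p = 2.8e-05). GABPB1 itself had 12.6 ± 1.5 CPM in shCtrl and 15.5 ± 1.2 CPM in shPRRC2B total RNA (SD, n = 3), a log2 difference of 0.30 ± 0.16 that did not pass the test (edgeR adjusted p = 0.17).

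FGD5-AS1, studied mostly as an RNA that binds microRNAs, went down in both fractions. It had 117, 113 and 127 CPM in shCtrl total RNA against 54.97, 58.8 and 58.1 CPM in shPRRC2B total RNA, and 94.4, 67.4 and 90.2 CPM against 46.3, 28.7 and 38.05 CPM in polysome RNA. The lines did not overlap in either fraction. It fell by 1.05 ± 0.16 in total RNA (edgeR adjusted p = 8.2e-05) and by 1.16 ± 0.16 in polysome RNA (edgeR adjusted p = 2.4e-05) on the log2 scale, and its TE change was -0.10 ± 0.22 (edgeR adjusted p = 0.77).

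OIP5-AS1 is the conserved cytoplasmic RNA also called Cyrano, which carries a site for miR-7 and promotes the decay of that microRNA. Its level was 111, 105 and 118 CPM in shCtrl total RNA and 98.2, 99.0 and 97.7 CPM in shPRRC2B total RNA, a difference of -0.18 ± 0.13 on the log2 scale (edgeR adjusted p = 0.31). In polysome RNA it was 59.0, 50.9 and 59.7 CPM in shCtrl and 76.8, 65.9 and 53.1 CPM in shPRRC2B cells, with overlap between the lines. It was lower in polysome than in total RNA in both lines, by -0.98 ± 0.13 in shCtrl and -0.59 ± 0.13 in shPRRC2B cells (edgeR adjusted p = 3.2e-06 and 0.00053), and in shCtrl cells that direction turned where the trend on length was removed. Its TE change of 0.39 ± 0.19 did not pass the test (edgeR adjusted p = 0.14).

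**Figure D2:**
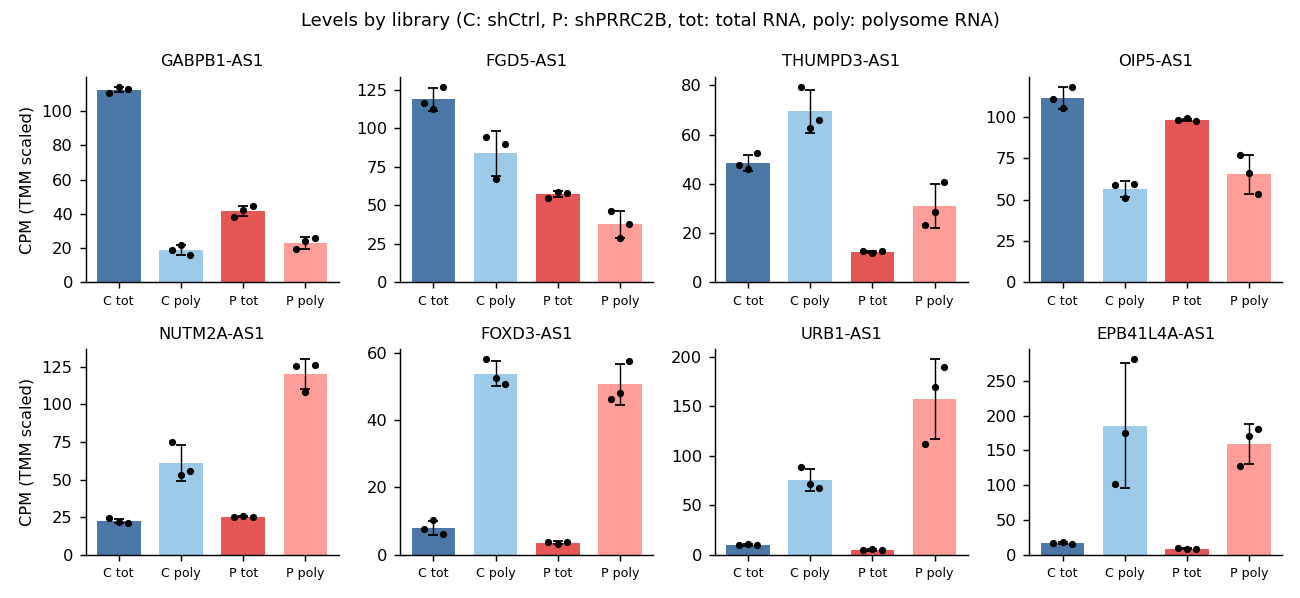
TMM-scaled CPM (y axis, linear from 0) of 8 antisense RNAs in the 4 groups (x axis); bars are means, error bars SD and points the 3 libraries. GABPB1-AS1 drops from 111 to 114 CPM to between 38.4 and 44.3 CPM in total RNA with overlapping polysome values, FGD5-AS1 drops in both fractions, and NUTM2A-AS1 and URB1-AS1 are higher in polysome RNA of shPRRC2B cells.

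The first comparison asked which antisense RNAs were richer in polysome than in total RNA of the same line. A gene was called where its p from the quasi-likelihood test in edgeR, adjusted by Benjamini-Hochberg over all genes tested, was under 0.05 and the log2 change was above 0.5 or below -0.5. In shCtrl cells 229 of the 390 RNAs (58.7%) were called higher in polysome RNA, against 32.5% of the 18166 genes tested, and 70 (17.9%) were called lower, against 39.8%. In shPRRC2B cells 271 (69.5%) were called higher, against 36.6% of all genes, and 50 (12.8%) lower, against 42.3%. The higher calls include RNAs such as ZNF687-AS1 and IRX4-AS1, which would miss the limit of summed counts at their level in total RNA. The limit was not set for all genes tested. The comparison with all genes is therefore a description, and the number of such RNAs was not worked out. The median log2 ratio of the members was 1.00 in shCtrl and 1.78 in shPRRC2B cells, beside -0.22 and -0.22 over all genes tested.

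These counts depended on the scaling. With library totals in place of TMM the median over all genes moved by -0.996 in shCtrl and -0.94 in shPRRC2B cells, and the members called were 117 higher and 133 lower in shCtrl and 206 higher and 91 lower in shPRRC2B cells. With the trend on transcript length removed from each library, the median over all genes moved by 1.15 and 1.17, and 273 members were called higher and 40 lower in shCtrl, 309 and 34 in shPRRC2B cells. The share of all genes called was not worked out under these alternatives, so these counts cannot be set against it. Relative to the median of all genes the members lay 1.22 higher in shCtrl and 1.99 higher in shPRRC2B cells under both TMM and library totals, and 0.81 and 1.49 higher with the length trend removed.

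The direction was mostly shared by the lines, which have no library in common here: 223 RNAs were called higher in both, 46 lower in both, 47 higher in shPRRC2B cells alone, 23 lower in shCtrl cells alone, 4 lower in shPRRC2B and 6 higher in shCtrl cells alone, 1 passed from lower to higher, and 40 were called in neither. Spearman's rho over the 390 RNAs was 0.89, given as a description, since all points come from the same 12 libraries. For these joint classes, too, the shares of all genes were not worked out. A call in 1 line alone does not show a difference between the lines, which the TE change tests.

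**Figure D3:**
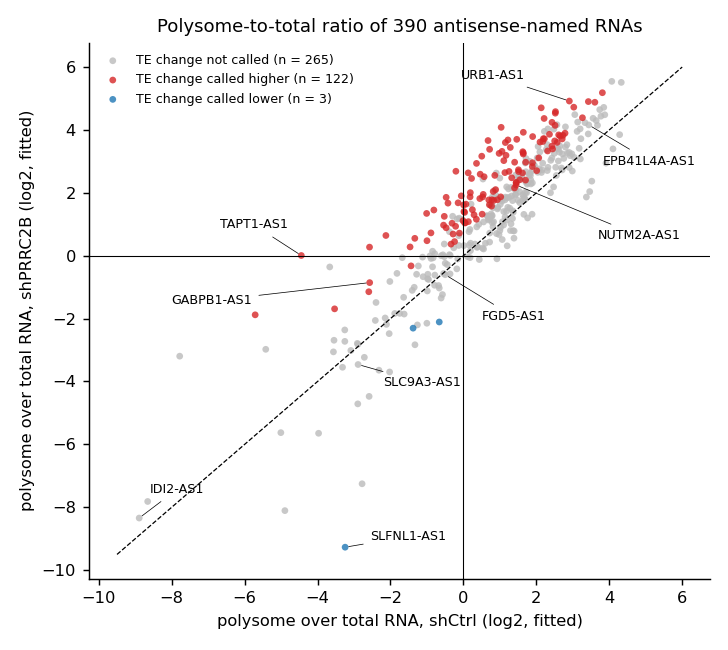
Fitted log2 ratio of polysome to total RNA in shCtrl (x axis) and shPRRC2B cells (y axis) for the 390 RNAs; the dashed line marks equal ratios, and colours mark the call of the TE change (122 higher, 3 lower, 265 not called). Most points lie above the line, and values beyond about -6 belong to RNAs at or near 0 counts in a polysome group, where the fitted value is no measure of size.

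The RNAs with the highest ratios had low levels in total RNA. ZNF687-AS1 had 0.717, 1.53 and 0.622 CPM in shCtrl total RNA and 16.0, 21.1 and 23.9 CPM in shCtrl polysome RNA, a fitted log2 ratio of 4.33 ± 0.31. With its polysome libraries at its level in total RNA it would not have reached the limit of summed counts. Its ratio is therefore given as a description without a test. PIK3CD-AS2 had 4.98, 5.44 and 4.91 CPM in shCtrl total RNA and 62.7, 73.3 and 90.4 CPM in polysome RNA, a log2 ratio of 3.88 ± 0.19 (edgeR adjusted p = 7.9e-12). Neither gene's fractions overlapped. IRX4-AS1, ZNF433-AS1, RBMS3-AS3 and DLGAP1-AS1 completed the 6 largest ratios in shCtrl cells, at 3.91 to 4.29 on the log2 scale, all with less than 1 CPM in every shCtrl total library. They too would not have reached the limit at their levels in total RNA, so these ratios are also a description without a test.

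Of the widely studied RNAs, EPB41L4A-AS1 hosts a small nucleolar RNA in an intron and MAPKAPK5-AS1 lies opposite a MAP kinase-activated kinase gene, and both were far richer in polysome RNA. EPB41L4A-AS1 had 16.6, 18.6 and 16.1 CPM in shCtrl total RNA and 101, 175 and 281 CPM in shCtrl polysome RNA, a log2 ratio of 3.44 ± 0.27 (edgeR adjusted p = 2.0e-09), with 54.3% of its exon length shared with another gene. MAPKAPK5-AS1 had 22.4, 21.1 and 19.1 CPM in shCtrl total RNA against 185, 118 and 109 CPM in polysome RNA, a log2 ratio of 2.72 ± 0.19 (edgeR adjusted p = 4.4e-10). The cytoplasmic snoRNA host RNAs GAS5 and ZFAS1, which are no members, had log2 ratios of 2.88 ± 0.25 and 2.82 ± 0.15 in shCtrl cells (edgeR adjusted p = 8.1e-09 and 1.7e-11). SNHG1 and SNHG5, also no members, had lower ratios there, of 1.504 ± 0.2085 and 0.33 ± 0.20 (edgeR adjusted p = 3.8e-06 and 0.14). That of SNHG5 was not called.

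At the other end stood RNAs without polysome counts. IDI2-AS1 had 104, 80 and 54 counts in shCtrl total RNA and 54, 58 and 60 in shPRRC2B total RNA but 0 in all 6 polysome libraries. XPC-AS1, opposite the DNA damage sensor XPC, had 85, 68 and 48 counts in shCtrl total RNA, 34, 44 and 42 in shPRRC2B total RNA, and likewise 0 in all 6. Taking 3 counts in each polysome library as the floor, which covers counting error only, IDI2-AS1 was at least 10.6-fold lower in polysome than in total RNA of shCtrl and at least 8.40-fold lower in that of shPRRC2B cells, and XPC-AS1 at least 9.02-fold and 5.81-fold lower. Depth allows no statement below that floor.

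HOXB-AS2 had 0, 0 and 2 polysome counts in shCtrl and 0 in each shPRRC2B polysome library, at least 7.10-fold lower than its 35, 65 and 49 counts in shPRRC2B total RNA when scaled. UCKL1-AS1 had 0 counts in each shCtrl polysome library and 53, 27 and 28 in total RNA, at least 4.93-fold lower. The nuclear RNA KCNQ1OT1, which is no member, had log2 ratios of -3.28 ± 0.29 in shCtrl and -3.67 ± 0.29 in shPRRC2B cells (edgeR adjusted p = 1.0e-08 and 2.0e-09).

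SLC9A3-AS1 had the lowest ratio of the 10 most abundant RNAs in shCtrl cells. It had 63.1, 45.9 and 38.3 CPM in shCtrl total RNA and 5.25, 3.47 and 11.3 CPM in shCtrl polysome RNA, a log2 ratio of -2.89 ± 0.30 (edgeR adjusted p = 1.1e-07). In shPRRC2B cells it had 30.2, 31.1 and 35.5 CPM in total and 2.24, 2.48 and 4.09 CPM in polysome RNA, a log2 ratio of -3.46 ± 0.33 (edgeR adjusted p = 2.1e-08). The fractions did not overlap in either line, and its TE change of -0.57 ± 0.45 did not pass the test (edgeR adjusted p = 0.37).

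Short antisense RNAs had higher median ratios than long ones. In the 92 RNAs with the shortest exons (374 to 1753 bases) the median log2 ratio was 2.16 in shCtrl and 3.22 in shPRRC2B cells, and in the 92 with the longest (6486 to 37876 bases) it was 0.56 and 1.08. The calls in shCtrl cells were 67 higher and 14 lower in the shortest and 46 higher and 16 lower in the longest set. The 75 RNAs that share no exon base with another gene had medians of 1.51 and 2.32, with 55 (73.3%) called higher in each line, against 32.5% and 36.6% of all genes. These are descriptions, and no test between these sets was made. Such sets by length were not made for all genes, so the relation to length is not shown to be particular to antisense RNAs.

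The second comparison asked how the lines differed within a fraction. In total RNA 102 antisense RNAs (26.2%) fell in shPRRC2B cells, against 14.1% of all genes, and 29 (7.44%) rose, against 14.9%. In polysome RNA it was the other way round: 119 (30.5%) rose, against 18.4% of all genes, and 39 (10.0%) fell, against 21.4%. The rises in both fractions include RNAs that reached the limit of summed counts only through shPRRC2B cells, such as ST8SIA6-AS1 and FZD10-AS1. Among the falls in total RNA, KLF3-AS1 would miss that limit at its shPRRC2B level. The limit was not set for all genes tested. The comparison with all genes is therefore a description, and the number of such RNAs was not worked out. The median log2 change of the members was -0.40 in total and 0.38 in polysome RNA, beside 0.04 and -0.01 over all genes. The count of 29 dropped to 17 when replicate 1 of shCtrl total RNA was left out, and to 19 when replicate 2 of that group or replicate 3 of shPRRC2B total RNA was. With total RNA libraries alone 155 members fell, and with polysome libraries alone 26 fell. For these refits, too, the share of all genes called was not worked out.

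The fractions have no library in common in these comparisons, and their calls were joined as follows. Of the 390 RNAs, 86 rose in polysome RNA alone, 65 fell in total RNA alone, 26 fell in both, 22 rose in both, 13 fell in polysome RNA alone, 11 fell in total RNA and rose in polysome RNA, 7 rose in total RNA alone, and 160 were called in neither. None rose in total RNA and fell in polysome RNA. The shares of all genes in these joint classes were not worked out, so none of these counts can be set against them. The sign of the fitted change was the same in both fractions for 209 RNAs, and Spearman's rho over the RNAs was 0.48, as a description.

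**Figure D4:**
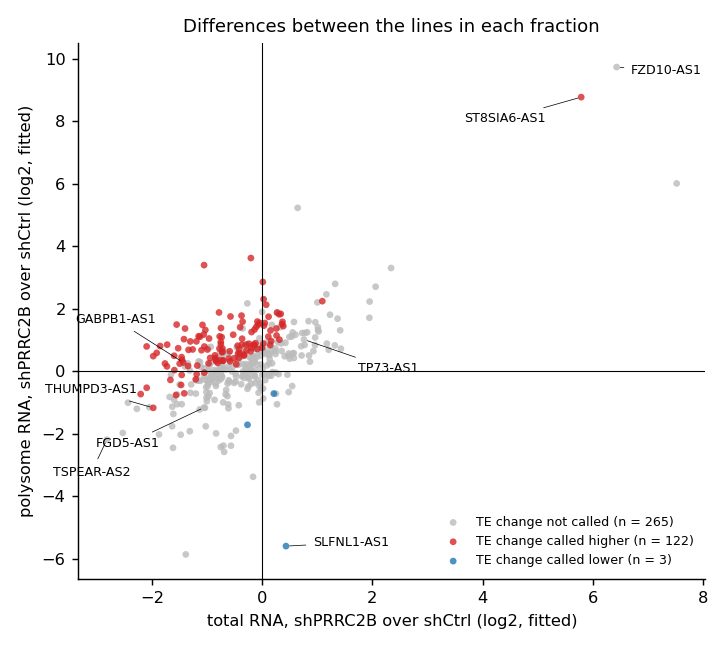
Fitted log2 change from shCtrl to shPRRC2B cells in total RNA (x axis) and in polysome RNA (y axis) for the 390 RNAs, coloured by the call of the TE change. Points called higher for TE lie towards the upper left, ST8SIA6-AS1 and FZD10-AS1 stand far to the upper right, and fitted values of RNAs at 0 in a group are no measure of size.

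ST8SIA6-AS1 and FZD10-AS1 had counts near 0 in shCtrl and plain counts in shPRRC2B cells. ST8SIA6-AS1, opposite a sialyltransferase gene, had 11, 2 and 3 counts in shCtrl total RNA against 284, 380 and 302 in shPRRC2B total RNA, and 11, 0 and 0 against 1920, 1590 and 2006 in polysome RNA. Since it reached the limit of 200 summed counts only through shPRRC2B cells, this difference is given as a description without a test. ST8SIA6 itself had 0.970 ± 0.21 and 1.11 ± 0.32 CPM in total RNA of the lines (SD, n = 3; log2 change 0.19 ± 0.41, edgeR adjusted p = 0.75). All 11 shCtrl polysome counts of ST8SIA6-AS1 were in 1 library. Its fitted TE change was 2.99 ± 0.89, and 2.07 without a call when shCtrl total replicate 1 was left out. For the same reason this TE change is given as a description without a test.

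FZD10-AS1 lies head to head with FZD10, a receptor for Wnt ligands, with 203 bases between the starts, and was higher together with it. It had 4, 2 and 0 counts in shCtrl total RNA against 150, 247 and 195, and 0 in each shCtrl polysome library against 51, 64 and 90, at least 19.1-fold higher on the floor of 3 counts a library. It too reached the limit of 200 counts only through shPRRC2B cells, so no test is given. FZD10 went from 0.108 ± 0.033 to 10.6 ± 0.54 CPM in total RNA (SD, n = 3), a log2 change of 6.58 ± 0.39 (edgeR adjusted p = 1.3e-08). Both RNAs differed between 2 single clones, and the part of the shRNA in that difference cannot be told apart from that of the clone.

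Less extreme rises in total RNA were those of ZFPM2-AS1, WDR11-AS1 and G2E3-AS1, with log2 changes of 2.34 ± 0.64, 2.06 ± 0.44 and 1.95 ± 0.40. ZFPM2-AS1 had 2 to 13 counts in each shCtrl library and WDR11-AS1 had 5 to 10. At that level in all libraries neither would have reached the limit of summed counts. Their rises are therefore given as a description without a test. That of G2E3-AS1 passed the test (edgeR adjusted p = 0.0014). The fitted log2 change of ZFPM2-AS1 in total RNA was smaller, and not called, without shCtrl total replicate 1 (1.85), shCtrl total replicate 2 (2.06) or shPRRC2B total replicate 2 (1.83). TP73-AS1, opposite the p53 family member TP73, rose from 37.5, 40.2 and 36.8 to 65.7, 66.1 and 62.2 CPM in total RNA and from 24.6, 28.2 and 28.3 to 47.1, 59.4 and 57.8 CPM in polysome RNA, with no overlap in either fraction. Its log2 changes were 0.76 ± 0.12 and 1.02 ± 0.13 (edgeR adjusted p = 0.00016 and 8.4e-06).

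The largest falls in total RNA were those of TSPEAR-AS2, ZNF460-AS1, HDHD5-AS1, SLC25A21-AS1, MORF4L2-AS1 and KLF3-AS1. TSPEAR-AS2 had 11.6, 8.44 and 8.15 CPM in shCtrl and 0.886, 1.15 and 1.97 CPM in shPRRC2B total RNA, with no overlap, and fell by 2.82 ± 0.28 on the log2 scale (edgeR adjusted p = 1.5e-06). Its polysome level went from 11.8, 16.9 and 15.5 to 2.58, 3.63 and 3.52 CPM, a fall by 2.19 ± 0.28 (edgeR adjusted p = 1.1e-05). Among abundant RNAs THUMPD3-AS1 fell from 47.5, 46.1 and 52.4 to 12.6, 11.8 and 12.7 CPM in total RNA, by 1.97 ± 0.17 (edgeR adjusted p = 3.0e-07), and THAP9-AS1 from 86.2, 83.2 and 79.5 to 27.4, 33.5 and 32.6 CPM, by 1.41 ± 0.15 (edgeR adjusted p = 2.0e-06). CDKN2B-AS1, also known as ANRIL and studied for its link to Polycomb silencing of the INK4 locus, fell from 9.28, 8.11 and 7.95 to 4.57, 4.54 and 4.11 CPM in total RNA, by 0.94 ± 0.21 (edgeR adjusted p = 0.0027).

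In polysome RNA the falls were led by RNAs with few counts. SLFNL1-AS1 had 0, 1 and 9 counts in shCtrl polysome RNA and 0 in each shPRRC2B library, and STPG3-AS1 had 0, 3 and 9 against 0 in each, so both calls rest on shCtrl polysome replicate 3: without it the edgeR adjusted p was 0.27 and 0.15. Both calls were also lost without any 1 of the shPRRC2B polysome libraries, at edgeR adjusted p-values of up to 0.0587 and 0.0579. TSPEAR-AS1 fell from 7.40, 4.015 and 2.77 to 0.344, 1.43 and 0.856 CPM in polysome RNA without overlap, by 2.45 ± 0.49 on the log2 scale (edgeR adjusted p = 0.00068), and SH3BP5-AS1 from 1.59, 1.30 and 1.66 to 0, 0.478 and 0.381 CPM, by 2.42 ± 0.55 (edgeR adjusted p = 0.0019). NNT-AS1, opposite the mitochondrial transhydrogenase gene NNT, had 10.2, 16.9 and 11.4 CPM against 5.67, 6.11 and 6.37 CPM in polysome RNA and fell by 1.08 ± 0.20 (edgeR adjusted p = 0.00037).

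The third comparison asked whether the ratio of polysome to total RNA differed between the lines. The TE change was called higher for 122 of the 390 RNAs (31.3%), against 10.7% of all genes, and lower for 3 (0.769%), against 16.4%. The higher calls include ST8SIA6-AS1, NQO2-AS1 and KLF3-AS1, whose TE changes cannot be tested because of the limit of summed counts. The limit was not set for all genes tested, and the number of such RNAs was not worked out. The comparison with all genes, here and for the sets of members below, is therefore a description. The fitted TE change was above 0 for 319 RNAs, and its median was 0.74 beside -0.03 over all genes. Of the 122 calls, 73 held without any 1 library, and of the 3 lower calls none did. The TE change uses all 12 libraries and so shares them with every comparison above.

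**Figure D5:**
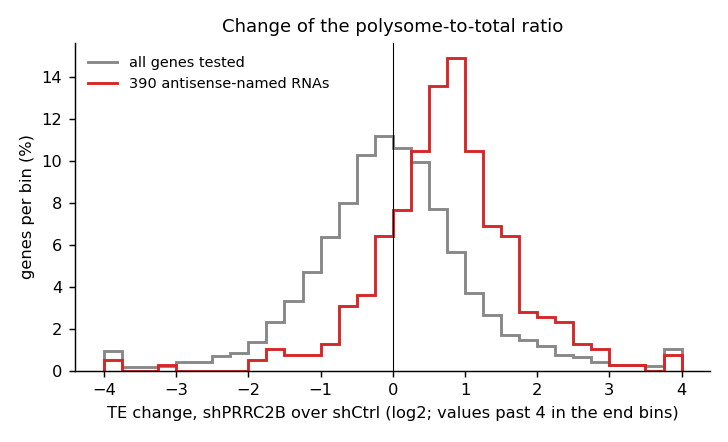
Distribution of the TE change (log2, shPRRC2B over shCtrl, x axis; bins of 0.25) as the percentage of genes per bin (y axis) for the 390 antisense-named RNAs (red) and all genes tested (grey). The members' curve is shifted to the right, with a median of 0.74 against -0.03.

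The members differed in which fraction moved. NUTM2A-AS1 had 24.3, 21.8 and 21.4 CPM in shCtrl and 25.4, 25.5 and 24.8 CPM in shPRRC2B total RNA, and 75.02, 53.1 and 55.5 against 125, 108 and 126 CPM in polysome RNA. The lines did not overlap in polysome RNA and lay close in total RNA, where the log2 difference was 0.17 ± 0.14 (edgeR adjusted p = 0.38). Its TE change was 0.80 ± 0.19 (edgeR adjusted p = 0.0056). HOXB-AS3, which encodes a small peptide, had a like pattern, with a polysome rise from 18.4, 18.9 and 15.3 to 27.0, 30.2 and 29.3 CPM and a TE change of 0.81 ± 0.21 (edgeR adjusted p = 0.0092), and shares 30.1% of its exon length with another gene. ZNF232-AS1 rose from 32.0, 34.0 and 35.6 to 88.4, 78.2 and 90.2 CPM in polysome RNA at 2.52 to 3.29 CPM in all 6 total RNA libraries, with a TE change of 1.48 ± 0.21 (edgeR adjusted p = 0.00010).

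In other RNAs the total RNA moved. FOXD3-AS1, opposite a gene for a neural crest and stem cell factor, had 7.66, 10.3 and 6.08 CPM in shCtrl and 3.73, 3.08 and 3.89 CPM in shPRRC2B total RNA, a fall by 1.19 ± 0.19 on the log2 scale (edgeR adjusted p = 0.00015). Its polysome levels overlapped (58.1, 52.5 and 50.8 against 46.2, 48.0 and 57.5 CPM), and its TE change was 1.10 ± 0.25 (edgeR adjusted p = 0.0039). SCAMP1-AS1, named after its values were seen, went from 11.4, 11.5 and 11.3 to 3.92, 4.54 and 3.93 CPM in total RNA and from 20.1, 28.1 and 25.6 to 37.2, 31.9 and 32.1 CPM in polysome RNA, with a TE change of 1.92 ± 0.22 (edgeR adjusted p = 2.9e-05).

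Another pattern was a fall in total RNA with a rise in polysome RNA. URB1-AS1, head to head with a ribosome assembly gene, had 9.85, 10.9 and 9.40 CPM in shCtrl and 4.48, 6.12 and 4.85 CPM in shPRRC2B total RNA, and 88.4, 71.2 and 67.0 against 112, 169 and 190 CPM in polysome RNA. No values of the lines overlapped, and the TE change was 2.01 ± 0.26 (edgeR adjusted p = 5.9e-05) without any exon base shared with another gene. ZEB1-AS1, opposite the gene for ZEB1, a repressor known from epithelial-mesenchymal transition, had 9.51, 9.31 and 9.95 CPM in shCtrl and 4.53, 5.94 and 6.86 CPM in shPRRC2B total RNA, and 11.7, 12.7 and 17.1 against 17.5, 19.0 and 26.9 CPM in polysome RNA. Its TE change was 1.34 ± 0.30 (edgeR adjusted p = 0.0030). Its polysome rise was not called without shCtrl polysome replicate 1 or 2 (0.42 and 0.46) or shPRRC2B polysome replicate 3 (0.32), nor its fall in total RNA without shPRRC2B total replicate 1 (-0.58), with edgeR adjusted p-values of up to 0.25 and 0.079. ZNF503-AS2, also chosen after its values were seen, rose in both fractions, from 22.9, 24.7 and 16.9 to 51.4, 47.9 and 38.8 CPM in total and from 56.1, 56.5 and 49.4 to 290.4, 243 and 236 CPM in polysome RNA, with a TE change of 1.15 ± 0.21 (edgeR adjusted p = 0.00086).

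The 6 largest TE changes among called RNAs with at least 1 CPM on average were those of TAPT1-AS1, PARD6G-AS1, NQO2-AS1, ST8SIA6-AS1, KLF3-AS1 and SPAG5-AS1. That of ST8SIA6-AS1 is a description without a test, as given above. TAPT1-AS1 had 2, 1 and 0 counts in shCtrl polysome RNA and 16, 18 and 4 in shPRRC2B polysome RNA against 61, 53 and 44 and 32, 31 and 20 in total RNA, a TE change of 4.45 ± 0.92 (edgeR adjusted p = 0.0020) that was called without any 1 library. NQO2-AS1 went from 2.06, 1.52 and 0.776 to 2.58, 5.06 and 4.85 CPM in polysome RNA, with a fitted TE change of 3.05 ± 0.78, and shares 46.4% of its exon length. With shPRRC2B polysome RNA at the shCtrl polysome level, NQO2-AS1 and KLF3-AS1 would not have reached the limit of summed counts. Their TE changes are therefore given as a description without a test. PARD6G-AS1, KLF3-AS1 and SPAG5-AS1 lost their TE calls in 6, 4 and 8 of the 12 fits that leave out 1 library, with edgeR adjusted p-values up to 0.17, 0.083 and 0.087. For KLF3-AS1 and SPAG5-AS1 the highest came without shCtrl total replicate 1 (TE change 2.46 and 2.53). For PARD6G-AS1 the largest shift came without shPRRC2B polysome replicate 1, which held 13 of its 17 counts in that group (TE change 2.39).

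The 3 RNAs with a lower TE were SLFNL1-AS1, DLX6-AS1 and MMP25-AS1. DLX6-AS1, known for acting on DLX genes in interneurons, had 6.65, 4.67 and 5.43 CPM in shCtrl and 2.32, 0.287 and 2.47 CPM in shPRRC2B polysome RNA without overlap, at 7.89 to 10.0 and 6.91 to 8.13 CPM in total RNA. Its TE change was -1.45 ± 0.51 (edgeR adjusted p = 0.043), a call that was lost in 8 of the 12 fits that leave out 1 library, with an edgeR adjusted p of up to 0.10 (without shCtrl total replicate 2, TE change -1.37). MMP25-AS1 had 4.12, 4.12 and 3.99 CPM against 2.15, 2.39 and 2.95 CPM in polysome RNA and a TE change of -0.92 ± 0.32 (edgeR adjusted p = 0.038), and lost the call in 6 of those fits, with an edgeR adjusted p of up to 0.11 (without shPRRC2B total replicate 3, TE change -0.77). The value of SLFNL1-AS1 rests on 1 shCtrl polysome library, as given above.

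The share of RNAs called with a higher TE went with their level, while the size of the TE change hardly did (Spearman's rho 0.06 over 366 RNAs, as a description). Of the 98 RNAs with the lowest mean level (0.875 to 2.30 CPM) 15 (15.3%) were called higher, and of the 98 with the highest (10.1 to 94.5 CPM) 50 (51.0%) were. These shares and those below are to be read beside the 10.7% of all genes. The median TE change was 0.68 and 0.79 in these sets, 0.58 and 0.77 in those between. By exon length the median was 0.98 in the 92 shortest and 0.52 in the 92 longest RNAs, with 32 (34.8%) and 27 (29.3%) RNAs called higher. Among the 75 RNAs without a shared exon base 16 (21.3%) were called higher and 0 lower by edgeR (0 lower also at an unadjusted p under 0.05 and by DESeq2), with a median of 0.57.

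Other classes of noncoding names had median TE changes above 0 as well. The TE change was called higher for 44 of 315 LINC-named RNAs (14%, median 0.58), near the 10.7% of all genes, 10 of 22 SNHG-named RNAs (45.5%, median 0.83) and 59 of 176 divergent transcripts named -DT (33.5%, median 1.14), and lower by edgeR for 10, 0 and 0 of them, where both counts of 0 were also 0 at an unadjusted p under 0.05 and by DESeq2. Differences between these classes were not tested.

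Antisense RNAs were also grouped by the kind of gene they face. Of 24 that lie opposite zinc finger genes, 17 were called higher in polysome RNA of shCtrl and 22 in that of shPRRC2B cells, and 10 had a higher TE and 0 a lower one by edgeR (0 also at an unadjusted p under 0.05 and by DESeq2). In total RNA 8 of these fell and 3 rose (33.3% and 12.5%), the second near the 14.9% of all genes. Of 17 opposite developmental factor genes, 7 had a higher TE and 1 (DLX6-AS1) a lower one, while 8 fell and 2 rose in total RNA. Of 10 opposite SLC transporter genes, 4 fell and 0 rose in total RNA by edgeR (0 rose also at an unadjusted p under 0.05 and by DESeq2). None of these 10 had a called TE change by edgeR, while 5 had a higher TE at an unadjusted p under 0.05 and 1 by DESeq2, with a median of 0.67. Of 23 widely studied antisense RNAs, 9 had a higher TE and 0 a lower one by edgeR (1 lower at an unadjusted p under 0.05 and 1 by DESeq2), with a median of 0.72, and RPARP-AS1 and AFAP1-AS1 were not among the members. In all these lists the share with a higher TE is to be read against the 10.7% of all genes and the 31.3% of the members, that of falls and rises in total RNA against 14.1% and 14.9% of all genes, and that of higher ratios against 32.5% in shCtrl and 36.6% in shPRRC2B cells.

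The members held 9 antisense RNAs of the HOX clusters, whose neighbours pattern the body axis. In polysome RNA of shCtrl cells 6 (66.7%) were called lower and 2 (22.2%) higher, beside 39.8% and 32.5% of all genes. In that of shPRRC2B cells 4 (44.4%) were lower, near the 42.3% of all genes, and 2 (22.2%) higher, beside 36.6%. The ratio of HOXA-AS3 in shCtrl cells changed its sign when the trend on length was removed. The call of HOXB-AS4 in shCtrl cells was lost in 8 of the 12 fits that leave out 1 library, with an edgeR adjusted p of up to 0.17 (without shCtrl polysome replicate 3, log2 ratio -0.66). The 2 higher were HOXB-AS3 and HOXC-AS1, whose log2 ratios were -0.22 and -0.016 when library totals replaced TMM. HOXA-AS2, HOXB-AS1, HOXC-AS1 and HOXC-AS2 fell in total RNA, and none rose by edgeR, also at an unadjusted p under 0.05, or by DESeq2. The fall of HOXB-AS1 was not called without shCtrl total replicate 1 or 2 (-1.36 and -1.31) or without shPRRC2B total replicate 1, 2 or 3 (-1.58, -1.15 and -1.48), with an edgeR adjusted p of up to 0.13. HOXC-AS1 had 5.92, 5.55 and 3.59 CPM in shCtrl and 2.1, 2.11 and 2.67 CPM in shPRRC2B total RNA, and 10.7, 9.22 and 10.2 against 13.4, 23.98 and 28.4 CPM in polysome RNA, without overlap in either fraction. Its TE change was 2.28 ± 0.37 (edgeR adjusted p = 0.00034). HOXD-AS2 had 18.8, 19.4 and 14.6 against 15.8, 16.4 and 14.3 CPM in total RNA and 3.75, 3.36 and 1.55 against 7.14, 4.87 and 8.94 CPM in polysome RNA, with a TE change of 1.45 ± 0.36 (edgeR adjusted p = 0.0072) and 49.3% of its exon length shared. HOXB-AS1 and HOXB-AS3 were the other two with a higher TE.

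An antisense RNA and its partner were both tested in 362 pairs. In these the TE change of the antisense RNA was above that of the partner in 297 (82.0%), with medians of 0.76 and -0.22. Of the 358 partner genes, 32 (8.94%) had a higher and 92 (25.7%) a lower TE, against 10.7% and 16.4% of all genes. In total RNA the antisense RNA lay above its partner in 92 pairs (25.4%), with median changes of -0.41 and 0.08. The ratio of polysome to total RNA in shCtrl cells was higher for the antisense RNA in 270 pairs (74.6%). Spearman's rho across pairs was 0.32 in total RNA, 0.24 in polysome RNA and 0.03 for the TE change, as a description of points that share libraries and, where exons overlap, could share reads.

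In 38 pairs both genes were called in total RNA. In 28 of them both went the same way, 10 up and 18 down, in 9 the antisense RNA fell while the partner rose, and in 1 it was the reverse. In total RNA 7.44% of the members rose and 26.2% fell, and 15.4% of the partner genes rose and 14.2% fell. How many such pairs these shares would give without a link within pairs was not worked out. MORF4L2-AS1 fell from 12.2, 10.1 and 11.6 to 2.05, 2.72 and 2.54 CPM, by 2.20 ± 0.25 on the log2 scale (edgeR adjusted p = 6.1e-06), and MORF4L2, a chromatin protein gene, fell by 0.57 ± 0.14 (edgeR adjusted p = 0.0044). H1-10-AS1 fell by 1.54 ± 0.26 and the linker histone gene H1-10 by 1.13 ± 0.15 (edgeR adjusted p = 0.00024 and 3.0e-05). MELTF-AS1 fell by 1.52 ± 0.26 and MELTF, which encodes melanotransferrin, by 0.63 ± 0.16 (edgeR adjusted p = 0.00032 and 0.0071), and 44.9% of the exon length of MELTF-AS1 is shared with another gene.

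The pairs that went opposite ways in total RNA held several partners with well known roles. DICER1-AS1 had 20.4, 20.7 and 15.2 CPM in shCtrl and 4.11, 6.08 and 7.61 CPM in shPRRC2B total RNA without overlap, and fell by 1.66 ± 0.27 on the log2 scale (edgeR adjusted p = 0.00019). DICER1, the nuclease that makes microRNAs from their precursors, rose from 89.0 ± 6.9 to 149.8 ± 9.4 CPM (SD, n = 3), by 0.75 ± 0.14 (edgeR adjusted p = 0.00061). In polysome RNA DICER1-AS1 had 15.6, 18.1 and 23.5 against 8.77, 18.7 and 19.9 CPM with overlap, while DICER1 fell by 0.99 ± 0.17 (edgeR adjusted p = 0.00014). Their TE changes were 1.39 ± 0.38 and -1.74 ± 0.22 (edgeR adjusted p = 0.013 and 4.5e-05), and 1.52% of the exon length of DICER1-AS1 is shared.

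ZNF436-AS1 fell from 5.32, 6.06 and 7.39 to 1.26, 1.86 and 2.01 CPM in total RNA, by 1.85 ± 0.43 (edgeR adjusted p = 0.0031), while ZNF436 rose by 0.97 ± 0.19 (edgeR adjusted p = 0.00091). In polysome RNA ZNF436-AS1 spread widely in shPRRC2B cells, at 4.73, 22.3 and 19.6 CPM against 8.62, 12.2 and 5.66 CPM in shCtrl cells. SLC25A21-AS1 fell by 2.27 ± 0.31 and STAM-AS1 by 1.45 ± 0.35 (edgeR adjusted p = 3.2e-05 and 0.0039), while SLC25A21, a mitochondrial carrier, and STAM, an endosomal sorting protein, rose by 0.69 ± 0.24 and 0.93 ± 0.17 (edgeR adjusted p = 0.031 and 0.00046). KLF3-AS1 had a fitted fall of 2.09 ± 0.63 and the repressor gene KLF3 rose by 0.82 ± 0.17 (edgeR adjusted p = 0.0012 for KLF3). With shCtrl total RNA at its shPRRC2B level KLF3-AS1 would not have reached the limit of summed counts. Its fall is therefore given as a description without a test. The fall of KLF3-AS1, at the lower limit of summed counts, was not called without shCtrl total replicate 1 (-1.67), shPRRC2B total replicate 1 (-1.80) or shPRRC2B total replicate 3 (-1.77).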

How the data were processed

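Polysome-associated and total RNA of 2 HEK293T lines were sequenced in 3 replicates per line and fraction (12 libraries). The authors deposited raw counts of read pairs per gene name, without normalization. Per the submitters' processing notes, Trimmomatic 0.36 removed adapters, HISAT2 2.1.0 aligned the reads to GRCh38, and pairs were counted with featureCounts (Subread 2.0.1) on GENCODE 38 (annotation from the methods, which name another minor version of HISAT2). All columns with values belonged to a library.

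The tests used edgeR 4.0.16 (R 4.3.3): filterByExpr (minimum count 10), TMM over all libraries, glmQLFit and glmQLFTest on the 4 groups without a block, with Benjamini-Hochberg adjustment over the 18166 genes tested. The interaction of line and fraction gave the TE change. DESeq2 1.42.0 was an alternative. The script was tested on simulated data. Exon lengths, positions and transcripts were those of GENCODE 44, matched by gene name (lengths for 94.6% of members and 86.8% of genes tested). Library totals between 9855734 and 20837542 counts set the precision, shares of counts are given with SDs over replicates, and the floor of 3 counts covers counting error only.

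The members and all lists were chosen with earlier results of these data known. RNAs named in the text are the 10 with the highest CPM in shCtrl total RNA, the 6 largest rises and falls per comparison among called members with a mean of at least 1 CPM, a list of widely studied antisense RNAs, up to 5 pairs per direction in which RNA and partner were both called in total RNA, members of the HOX list, and those beside the 200-count limit. RNAs outside this rule are marked. One RNA that the rule names is not reported here. The alternatives tried were DESeq2, its size factors (RLE), library totals, 2 other filters, a replicate block, removal of a lowess trend on length (span 0.3), both of these together, no minimum log2 change, 1 fraction alone, and each library left out.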

Additional observations from a re-analysis of the deposited data

Results flagged for a closer look

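The polysome-to-total ratio differed between the lines, by the interaction term of the edgeR fit, for the following RNAs, of which IDH1-AS1, HHIP-AS1, TMPO-AS1 and PITPNA-AS1 are given only here. The log2 differences (shPRRC2B over shCtrl) among abundant or widely studied RNAs were 1.72 for GABPB1-AS1, 0.71 for THAP9-AS1, 0.81 for THUMPD3-AS1, 0.83 for MAGI2-AS3, 0.80 for NUTM2A-AS1, 0.93 for TMPO-AS1, 1.34 for ZEB1-AS1, 0.81 for HOXB-AS3, 1.10 for FOXD3-AS1, 1.12 for PITPNA-AS1 and 2.99 for ST8SIA6-AS1. The value of ST8SIA6-AS1, and those of NQO2-AS1 and KLF3-AS1 further on, are to be read as a description without a test, as given above. Among RNAs with large ratios in shPRRC2B cells they were 1.37 for IDH1-AS1, 2.01 for URB1-AS1, 1.48 for ZNF232-AS1 and 1.28 for HHIP-AS1. Among RNAs with large differences they were 4.45 for TAPT1-AS1, 3.83 for PARD6G-AS1, 3.05 for NQO2-AS1, 2.89 for KLF3-AS1 and 2.85 for SPAG5-AS1, and among RNAs paired with a called partner 1.48 for MORF4L2-AS1, 2.26 for MELTF-AS1, 2.66 for ZNF436-AS1, 1.39 for DICER1-AS1 and 1.82 for STAM-AS1. The HOX antisense RNAs gave 2.77 for HOXB-AS1, 2.28 for HOXC-AS1 and 1.45 for HOXD-AS2, and the RNAs chosen after their values were seen gave 1.15 for ZNF503-AS2 and 1.92 for SCAMP1-AS1. Lower ratios were found for SLFNL1-AS1 (-6.03, on 10 shCtrl and 0 shPRRC2B polysome counts), DLX6-AS1 (-1.45) and MMP25-AS1 (-0.92). Without 1 library the edgeR adjusted p rose above 0.05 for THAP9-AS1 (up to 0.060, shPRRC2B polysome replicate 3), THUMPD3-AS1 (up to 0.074, the same library), TMPO-AS1 (up to 0.078, shPRRC2B polysome replicate 2) and PITPNA-AS1 (up to 0.17, shCtrl total replicate 2).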

How the results depend on the processing

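Relative to the median of all genes tested, the members' median kept its sign in every comparison and alternative: 0.80 to 1.42 for polysome over total RNA in shCtrl and 1.49 to 2.08 in shPRRC2B cells, -0.48 to -0.38 for total RNA, 0.28 to 0.47 for polysome RNA and 0.66 to 0.86 for the TE change. The causes of the shifts were not tested, except that 1 filter leaves fewer RNAs. Depth limits what can be said of RNAs near 0 counts in a group.

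Library totals gave 117 members higher and 133 lower in polysome RNA of shCtrl and 91 lower in that of shPRRC2B cells. Requiring 10 counts in every library left 260 members, with 31 lower in shCtrl, 15 lower in shPRRC2B polysome RNA, 17 higher in total RNA and 1 with a lower TE. Removing the length trend gave 40 lower in shCtrl and 1 with a lower TE, and 40 and 0 with the block added. Total RNA alone gave 155 lower, and DESeq2 gave 6 with a lower TE. Leaving out each library gave 17 to 28 members higher in total RNA and 0 to 5 with a lower TE. Under none of the alternatives was the share of all genes called worked out.

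For the ratio in shCtrl cells, library totals turned HOXB-AS3 (-0.22), HOXC-AS1 (-0.016), LOXL1-AS1 (-0.093), SBF2-AS1 (-0.26), THUMPD3-AS1 (-0.49), TMPO-AS1 (-0.16) and ZEB1-AS1 (-0.48). Removing the length trend, without and with the block, turned HOXA-AS3 (0.26 and 0.22), MCM3AP-AS1 (0.51 and 0.50), NNT-AS1 (1.17 and 1.16), OIP5-AS1 (1.57 and 1.57) and SLC16A1-AS1 (1.74 and 1.74). Of 2824 refits of 141 results for single RNAs, 2612 kept direction and call, 195 lost the call and 17 turned.

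Same-numbered replicates did not deviate together (r between -0.06 and 0.05, none over 0.1), and 7 of 18 comparisons of a library with another group had their highest correlation with the same number. With a replicate block 116 members had a higher and 2 a lower TE, 223 were higher and 70 lower in polysome RNA of shCtrl, 271 and 51 in that of shPRRC2B cells, 24 and 99 in total RNA, and 115 and 36 in polysome RNA between the lines.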
